A study of Homo sapiens with 32 samples.

Results

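The 200 genes described here carry many separate peaks of N6-methyladenosine (m6A), the most common internal methyl mark of messenger RNA, in every one of 4 peak lists from A375 melanoma cells. A gene was selected on its summit counts: the RefSeq hg38 span of a protein_coding or lncRNA gene had to hold 15 or more peak summits, the positions of highest enrichment, in each of the 4 lists, on either strand. This rule took 200 of 38386 such genes in the table (0.521%), and 2.16% of the 9258 genes with at least 1 summit in each list. Of the 200, 175 are protein_coding and 25 are lncRNA genes.

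The lists come from m6A immunoprecipitation and sequencing (MeRIP-seq) of chromatin-associated RNA, freed of ribosomal RNA, from the established human melanoma line A375. The libraries fall into a pair of groups, 2 labelled as wild type with a control short hairpin RNA (shControl) and 2 labelled as METTL3 knockdown (shMETTL3). All 4 were enriched with the same antibody kit after a methylated spike-in RNA had been added. The labels do not say whether replicates were separate cultures, or whether the hairpin lines are clones, so p-values measure only the spread between these libraries, which may reflect handling alone. The series holds 32 samples in 16 groups, and the other 28, among them the matched inputs, dCas13b-FTO targeting libraries and HEK293T libraries, were not used here.

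METTL3 is the catalytic subunit of the methyltransferase complex that writes m6A while RNA is being transcribed, mostly on adenosines in a short consensus of which GGACT is a common form. In mature messenger RNA the mark is known to gather in long internal exons and near stop codons. RNA bound to chromatin is largely nascent and unspliced, so introns, which make up most of the span of a long gene, are present in such libraries. Reader proteins bound to m6A affect splicing, export, decay and, for chromatin-associated RNA, the turnover of the transcript at its own locus.

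The peak lists held 45345 and 47692 peaks in the control libraries and 44108 and 42969 in the knockdown libraries, and read depths are unknown because the lists hold no read counts. The METTL3 gene itself had 5 summits in each of the 4 lists; a peak list measures neither RNA nor protein level, so the knockdown is not checked by this count. Among cell type markers, 11 of 17 of the melanocyte lineage had no summit in any list (among them SOX10, PMEL, MLANA, TYR, TYRP1 and DCT), and the list's summits summed to between 14 and 17 a library. All 12 markers of dedifferentiated melanoma found in the gene table had a summit, with sums from 97 to 139, and EGFR and THBS1 of that list are among the dense genes. Of the leukocyte markers 9 of 10 had no summit, with sums of 0 to 1, of the keratinocyte markers 8 of 10 with sums of 4 to 7, and of the fibroblast markers 7 of 10 with sums of 12 to 26. A missing summit is not missing RNA, and these sums were not set against gene span. The markers therefore do not establish the cell type.

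Peaks lay on the transcribed start of many dense genes, and 6 of these starts hold the GGACT form of the m6A consensus. RefSeq promoter windows (GRCh38.p14, 250 bases before to 50 after each start) matched 163 of the 200 genes with 273 windows, since a gene can have several starts. In 78 genes, 92 windows had a locus on the gene's own strand over the first 50 transcribed bases, a locus being the union of overlapping peaks of the 4 lists on 1 strand. The motif GGACT on the transcribed strand, which overlaps no other motif searched, was found in the first 50 bases of 4.90% of the 35116 windows of the table, of 6.59% of the windows of dense genes and of 6.52% of the 92 with a locus. These 6 windows are shown because they are the starts where a peak in all 4 lists and the motif coincide; each line gives 30 bases with the motif in capitals.
WWC2: acgcagacatggtGGACTgatccgcagcgg
PCDHA2: taagagaagcagcaGGACTttaacagagac
PCDHA10: ccagtttctcaaGGACTaggaagtagcgtc
PDCD11: aagaattgcactGGACTgtgggtatcctgg
NALF1: cgaagatggcggcaacttagcccgcGGACT
TENM1: gcttgcattaaaGGACTtcctcatcctttt
In GRCh38.p14 these stretches lie at chr4:183099277-183099306 (WWC2, plus strand), chr5:140794872-140794901 (PCDHA2, plus), chr5:140855899-140855928 (PCDHA10, plus), chr10:103396636-103396665 (PDCD11, plus), chr13:107867447-107867476 (NALF1, minus) and chrX:124963784-124963813 (TENM1, minus). The motif began at transcribed base 34, 35, 15, 23, 46 and 17, in the order shown, with the annotated start counted as base 1. A match is a description of the letters and not evidence of a methylated base, because the loci over these starts span 0.279 kb (TENM1) to 2.25 kb (NALF1).

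WWC2 is a scaffold protein of the Hippo pathway. Among the 6, the locus at its start had the highest fold enrichment over the peak caller's background, except in knockdown replicate 1 (NALF1, 8.12). The WWC2 folds were 6.84 and 9.09 in control and 7.98 and 8.82 in knockdown, so the groups overlapped. The start of TENM1, a teneurin cell-surface protein, had the lowest folds except in knockdown replicate 2, where PDCD11 had 2.19. The TENM1 folds were 3.06 and 2.57 in control against 3.93 and 3.36 in knockdown. Over the 92 windows lay 85 distinct loci: 63 had a peak in all 4 lists, 4 in both control lists only, 1 in both knockdown lists only and 17 in another combination. The 4 control-only start loci were those of PTPRF (a receptor tyrosine phosphatase), SPTBN1 (the beta spectrin of the membrane skeleton), SRRM2 (a splicing factor that scaffolds nuclear speckles) and MYH9 (a heavy chain of non-muscle myosin). At another start of SPTBN1 the locus had a peak in all 4 lists. Its folds were 3.69 and 3.34 in control against 5.14 and 5.24 in knockdown. At the start of SRRM2 the folds were 8.91 and 8.29 in the control lists, the highest of the gene in those lists, with no peak called in the knockdown lists. The knockdown-only start locus belonged to PRRC2B, an RNA-binding protein, with folds of 5.44 and 5.31.

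Dense genes differed from other genes more in span than in summits per length. Their median span was 178 kb, against 35.3 kb for the other 9058 genes with a summit in each list, and 170 of the 200 span more than 100 kb, 26 more than 500 kb and 8 more than 1000 kb. Only 8 span less than 50 kb. The median gene held 13.7 summits per 100 kb (mean of the 4 lists), against 11.9 in the 365 genes whose smallest count was 10 to 14 and 9.38 in the other genes. Since the rule sets a floor on the number of summits, density follows from span, and these values are a description with no test.

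**Figure D1:**
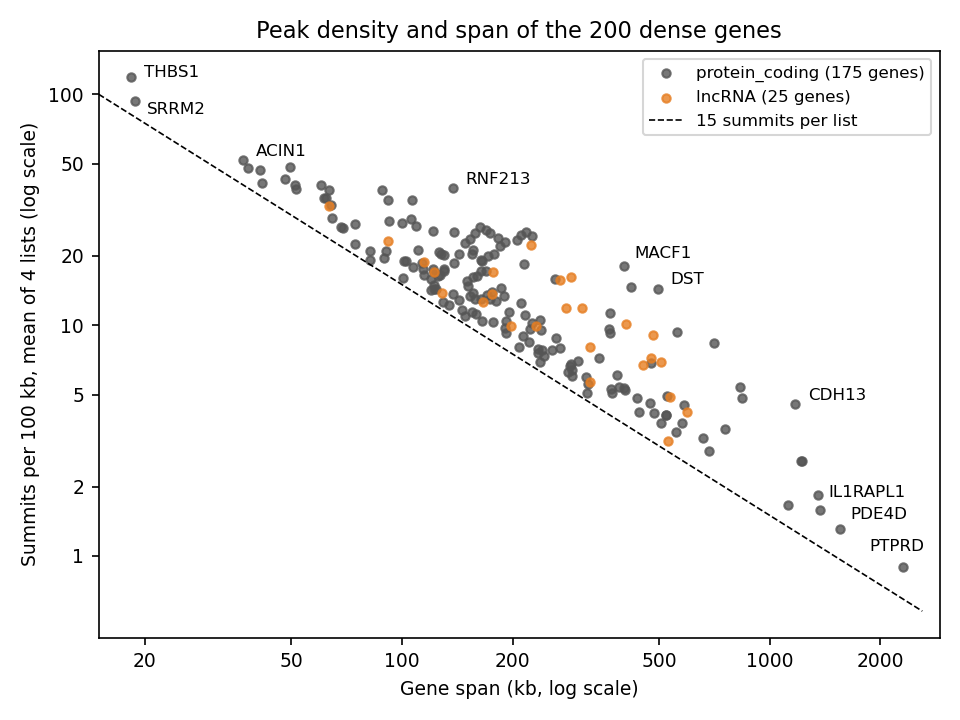
Summits per 100 kb (mean of 4 lists) against gene span in kb, both on log scales, 1 point for each of the 175 protein_coding and 25 lncRNA genes; the dashed line marks 15 summits per list. Density runs from 118 per 100 kb in THBS1 to 0.892 in PTPRD, and every gene lies above the line by construction.

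THBS1, which encodes the secreted matrix glycoprotein thrombospondin-1, was the shortest dense gene (18.4 kb) and had the most summits per length. It held 27 and 25 summits in control against 17 and 18 in knockdown, or 118 per 100 kb, with the control counts above the knockdown counts. SRRM2, nearly as short (18.8 kb), had 15 and 18 against 16 and 21 summits and 93.2 per 100 kb, and its groups overlapped. Next came ACIN1 (an RNA-binding protein of the exon junction machinery, 52.0 per 100 kb), PDCD11 (a ribosome biogenesis factor, 48.3), IGFN1 (an immunoglobulin and fibronectin repeat protein, 47.9) and AHNAK2 (a giant scaffold protein, 46.8).

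The sparsest dense genes were among the longest in the genome. PTPRD, a receptor tyrosine phosphatase spanning 2299 kb, had 21 and 21 control and 19 and 21 knockdown summits, or 0.892 per 100 kb. PDE4D, a cyclic AMP phosphodiesterase of 1553 kb, came next, followed by IL1RAPL1, a synaptic receptor of 1369 kb with 1.59 per 100 kb, and RANBP2, a nuclear pore protein whose annotated span is 1123 kb, with 1.67. Length alone did not bring a gene over the threshold: of 71 genes over 1000 kb, 31 had a summit in each list and 8 were dense.

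The largest numbers of summits belonged to a pair of spectraplakins, giant linkers of actin and microtubules. DST held 78 and 83 summits in control against 64 and 61 in knockdown. MACF1 held 86 and 85 in control against 58 and 61 in knockdown, so in both genes each control list exceeded each knockdown list. NALF1, an auxiliary subunit of the sodium leak channel, had 55 and 56 against 61 and 63, the opposite order.

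The next genes by smallest count had groups that overlapped. RNF213, a giant ubiquitin ligase, had 55 and 53 control and 49 and 59 knockdown summits in 138 kb, the highest density (39.1 per 100 kb) among the genes with over 50 summits on average. ADARB2, a brain-enriched relative of the RNA-editing deaminases, had 54 and 52 against 53 and 50. LINC02476, a lncRNA gene with no named function, had 43 and 48 against 47 and 48. PCDHA1, PCDHA2, PCDHA3 and PCDHA4 complete the first 10 and share their summits, as described below.

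Close to the threshold, 33 genes had a smallest count of exactly 15 and 43 genes had 14 and stayed outside. The 5 members at 15 with the most summits were TBC1D5 (34, 37, 20 and 15, in the order control 1, control 2, knockdown 1, knockdown 2), IL1RAPL1 (25, 32, 15 and 15), PDCD6-AHRR (24, 29, 15 and 16), UBE2E2 (23, 20, 26 and 15) and DYNC2H1 (15, 22, 23 and 18). Among the genes just outside were CHD9 (30, 30, 20 and 14), PRRC2C (31, 29, 18 and 14), CCBE1 (14, 17, 26 and 26) and HUWE1 (28, 25, 15 and 14). Each of these last 4 genes fell short of the threshold in 1 list.

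Several dense genes share the same stretch of genome, so the 200 genes are 172 separate territories covering 51.6 Mb. In 7 territories, 35 members overlap each other, and 165 members overlap no other member. The largest is the gamma cluster of protocadherins, cell-surface adhesion proteins made from alternative first exons spliced to common 3′ exons: 13 members (PCDHGA1 to PCDHGA8 and PCDHGB1 to PCDHGB5) lie within 182 kb of chromosome 5. That territory held 43, 46, 41 and 44 summits, all on the plus strand, or 23.8 per 100 kb. The alpha cluster, with 11 members (PCDHA1 to PCDHA11) in 226 kb, held 51, 56, 55 and 58 summits, or 24.3 per 100 kb. The spans of the cluster genes end at the same base and are nested, so a summit was counted in several of them and their counts are not independent.

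Most protocadherin loci were shared by the libraries. Of 55 alpha loci, 37 had a peak in all 4 lists, 0 in the control lists only and 1 in the knockdown lists only, and of 47 gamma loci 26, 2 and 1 fell in these classes. PCDHA11 had the largest share of loci in all 4 lists of any dense gene, 81.3% (13 of 16), followed by PCDHA9 at 80.0%, CENPF at 79.2% (a kinetochore protein, 19 of 24) and PCDHA10 at 78.3%. The other shared territories were those of PRH1, PRH1-PRR4 and PRH1-TAS2R14 on chromosome 12, ANO7 with HDLBP, KCNQ1 with its antisense lncRNA KCNQ1OT1, RNF213 with RNF213-AS1, and ZFPM2 with ZFPM2-AS1. Chromosome 5 held 34 members in 12 territories, chromosome 1 held 18 in 18 and chromosome 15 held 13 in 13, while chromosome 19 had 1 member of 624 genes with a summit in each list.

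Neighbouring summits within a dense gene were most often a few kb apart. Over all neighbouring pairs on 1 strand, the median distance was 2485 and 2473 bp in control against 2307 and 2317 bp in knockdown. In the order of the libraries, 24.7%, 24.5%, 26.2% and 26.5% of the distances were under 1 kb, and 12.6% to 12.7% were over 20 kb. Both knockdown lists had the shorter median distance; in the other genes with summits the order was the reverse, 2715 and 2722 bp in control against 3023 and 3039 bp in knockdown. Distances follow from the counts the rule used, and no test was made.

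**Figure D2:**
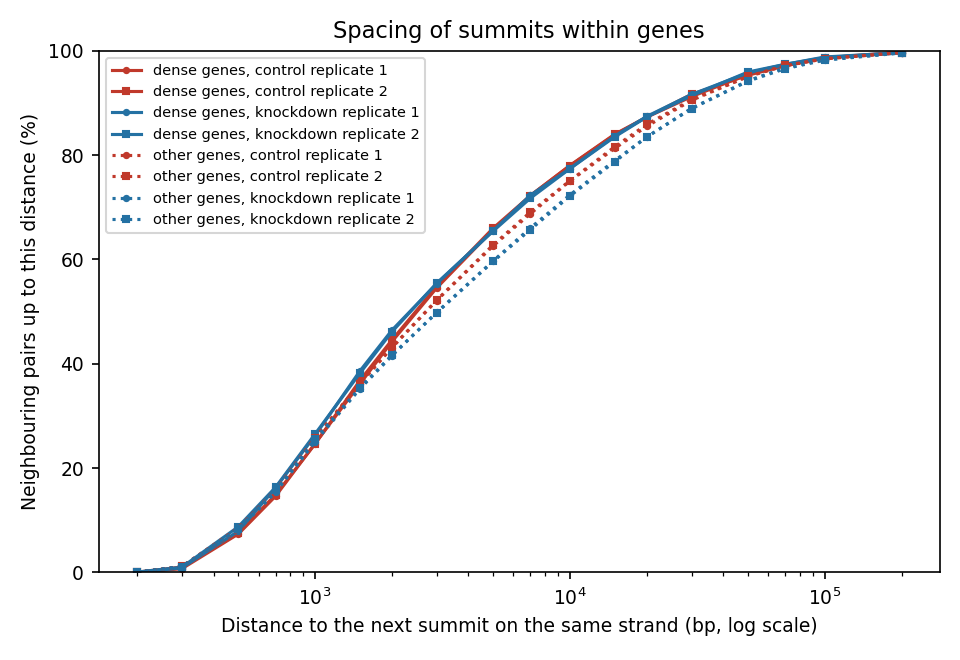
Cumulative percentage of neighbouring summit pairs (same gene, list and strand) by their distance in bp on a log scale, for the 4 lists in dense genes (solid lines) and in other genes (dotted lines), control in red and knockdown in blue. The 4 solid lines nearly coincide, and about 87% of distances in dense genes are at most 20000 bp (87.3% in control replicate 2).

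Between genes the spacing varied more than between lists. Per gene, the median distance was 2259 bp at the middle of the 200, from 677 bp in AHNAK2 to 26889 bp in PDE4D. In THBS1 it was 885 bp and in SRRM2 909.5 bp. NALF1, of 704 kb, had a similar number of summits to RNF213 and a median distance of 7428 bp against 1654 bp. KCNIP4, a potassium channel interacting protein of 1220 kb, had a median distance of 1512 bp although it held only 2.58 summits per 100 kb, so its summits stood in groups with long stretches between them.

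Within genes, loci were more frequent toward the 3′ end. Loci on the main strand of a gene (its annotated strand for 163 genes, otherwise the strand with more summits) were placed in 10 equal segments of the span, and from the first to the last segment the shares were 9.35%, 8.22%, 8.04%, 7.81%, 9.01%, 9.47%, 10.1%, 10.5%, 12.5% and 14.99% of 5584 loci. In annotated protein_coding genes 16.3% of 3979 loci lay in the last segment and 8.39% in the first, while in annotated lncRNA genes these shares were 8.56% and 11.6% of 327 loci. The median gene had loci in 8 of its 10 segments.

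By number, few of these loci were at the ends of the annotated genes, which are short stretches of long spans. Of 4306 main-strand loci in annotated genes, 115 (2.67%, in 72 genes) lay in the last 2000 bp and 54 (1.25%, in 52 genes) in the first 500 bp, and 96.1% lay between. The dense genes had a median span of 178 kb, so stretches of 2000 and 500 bp are small parts of most genes. Loci per base were not compared between the ends and the interior, so these shares do not show scarcity at the ends. The share of loci with a peak in all 4 lists was 47.8% (95% Wilson interval 38.9 to 56.9) in the last 2000 bp, 53.7% (40.6 to 66.3) in the first 500 bp and 44.2% (42.7 to 45.7) in the interior. The gene table has no exons, so whether an interior locus is exonic or intronic was not determined.

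Some genes departed from this spread. In PTPRD 83.3% of the 24 loci lay in the last segment, and loci occurred in only 3 segments. In RANBP2 52.0% of 25 loci lay in the first segment, and only 45.3% of its summits lay in that gene alone. In ADARB2 38.7% of 75 loci lay in the second segment.

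**Figure D3:**
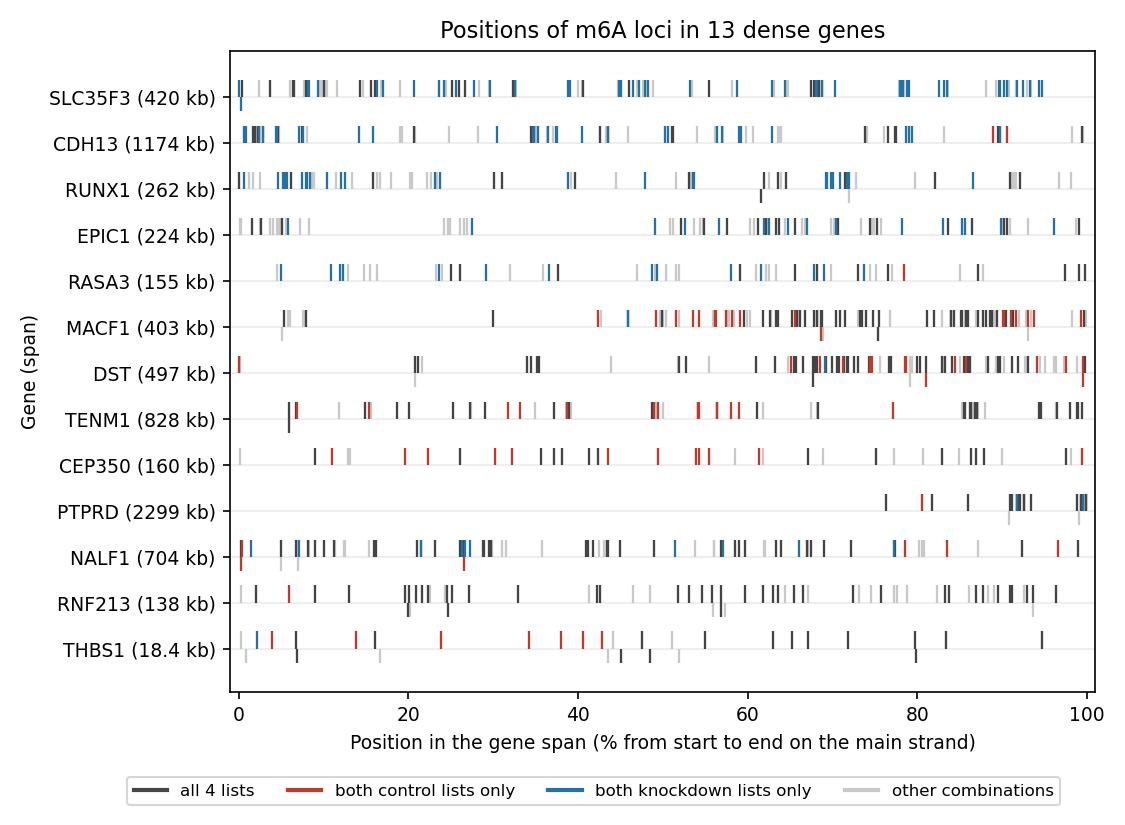
Loci of 13 dense genes along the gene span, from start (0%) to end (100%) on the main strand; ticks above the line are on the main strand and ticks below on the other, coloured by the lists that hold a peak. Loci of PTPRD crowd into the last segment (83.3%), while knockdown-only loci (blue) run through SLC35F3 and CDH13. Control-only loci (red) lie from 42.4% to 99.4% of the span in MACF1 and from 6.83% to 77.1% in TENM1.

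Nearly all summits in a dense gene were on 1 strand. In 93 of the 200 genes every summit of the 4 lists was on the same strand, and the median share on the lesser strand was 1.06%. It was 10% or more in 30 genes and 20% or more in 15. Counted on the main strand alone, 175 genes would still hold 15 summits in each list. Counted from summits that lie in no other gene of the table, 137 would, and 31 genes had no such summit.

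The 4 genes with the most even strands were ANO7 (an anoctamin membrane protein, 48.8% on the lesser strand), SNHG14 (46%), TUSC3 (a subunit of the oligosaccharyltransferase complex, 44.0%) and ADCY3 (an adenylyl cyclase, 43.1%). The 3′ end of ANO7 overlaps that of HDLBP, an RNA-binding protein gene on the opposite strand. No summit of ANO7 lay in that gene alone, so its membership cannot be told apart from that of HDLBP. SNHG14 is the long host transcript of snoRNA clusters in an imprinted region, and 30% of its summits lay in it alone. None of its 14 loci on the opposite strand overlapped a locus on its own strand.

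In 5 genes with an annotated strand most summits were on the other strand. These were SNHG14 (54% off its strand), MCM3AP (a messenger RNA export factor, 61.4%), AHNAK (a giant scaffold protein, 71.4%), RNF213-AS1 (97.6%) and LOC107986620 (100%). RNF213-AS1 runs antisense within the RNF213 territory and nearly all of its summits lay in another gene as well, so its 22, 21, 19 and 21 summits are those of RNF213 in nearly all cases. KCNQ1 and KCNQ1OT1 lie in the same stretch on opposite strands, and all of their 23, 22, 21 and 19 summits lay within KCNQ1OT1 and on the minus strand, on which the antisense transcript is known to be made.

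Opposite-strand loci differed in whether a main-strand locus faced them. Over the dense genes 364 loci lay on the strand opposite to the main strand of every dense gene holding them, and 177 of these (48.6%) overlapped a main-strand locus of the same gene. In AHNAK 12 of 13 overlapped one, in THBS1 6 of 8 and in SRRM2 5 of 6, against 2 of 16 in MCM3AP and 1 of 7 in HDLBP. Of the 364, 33.5% (28.9 to 38.5) had a peak in all 4 lists, and of the 5584 main-strand loci 43.3% did; this difference was not tested.

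The share of dense-gene peaks off the main strand, which is not the lesser-strand share above, did not separate the groups. It was 5.27% and 5.64% in control against 5.41% and 5.86% in knockdown, or 5.46% ± 0.261 and 5.63% ± 0.316 (SD, n = 2 each). The difference of 0.175 percentage points gave p = 0.667 in an exact two-sided permutation test (adjusted p = 0.667 over 3 values tested), where 2 libraries against 2 cannot go below 0.333.

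The median fold of peaks was lower in dense genes than in other genes in every library, in a design too small to pass 0.05. In dense genes it was 3.71 and 3.59 in control and 3.79 and 3.78 in knockdown, and in other genes 3.86, 3.65, 3.94 and 3.93 in the same order. It was lower in dense genes in 4 of 4 libraries, by 0.128 ± 0.0482 (SD, n = 4; exact sign-flip permutation test, two-sided, p = 0.125, the smallest 4 libraries allow; adjusted p = 0.188). Against genes with a smallest count of 10 to 14 the difference was -0.0511 ± 0.0447, again below 0 in 4 of 4 libraries (exact sign-flip p = 0.125, adjusted p = 0.188).

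Both knockdown lists had the higher median fold and the wider peaks in dense genes, and both values shifted the same way elsewhere. In other genes the median fold was 3.86 and 3.65 in control against 3.94 and 3.93 in knockdown. The median width there was 254 and 258 bp in control against 266 and 267 bp in knockdown. In dense genes the fold was 3.65 ± 0.0822 in control and 3.78 ± 0.0031 in knockdown (SD, n = 2 each), a difference of 0.133 with an exact permutation p = 0.333 (adjusted p = 0.5). Their median width was 247.5 and 250 bp in control against 268 and 265 bp in knockdown, a difference of 17.75 bp (exact permutation p = 0.333, adjusted p = 0.5). The groups did not overlap in either value in the lists as deposited. With lists of equal length the difference in fold was 0.0396 and the groups overlapped (exact permutation p = 0.667), while the widths still differed by 17.5 bp.

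The dense genes held nearly the same number of peaks in each library, 4362 and 4484 in control and 4437 and 4372 in knockdown, or 9.62%, 9.40%, 10.1% and 10.2% of each list. Beneath this even total, single genes differed in both directions. In 71 genes (35.5%) both control counts exceeded both knockdown counts, where 24.1% of all genes with a summit in each list did so, and in 49 genes (24.5%) both knockdown counts were the higher, where 16.5% did. In the other 80 genes the groups overlapped. Overlapping members share summits, so these genes are not independent. KCNQ1 and KCNQ1OT1, which have the same counts, are both among the 71. So are several gamma protocadherin genes, although the groups overlapped over their territory as a whole. The control lists are the longer ones. With all lists cut to the length of the shortest, the same 200 genes gave 52 higher in control and 66 higher in knockdown. The shares over all genes under this cut are not given here, so the turned balance is not read as particular to dense genes. The rule used these counts, so nothing is read from the excess over all genes.

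Across the 200 genes, counts were more alike within a group than between groups. Spearman's correlation was 0.890 for the control pair and also 0.890 for the knockdown pair, against 0.589 to 0.647 between a control and a knockdown list. Genes are not independent replicates, overlapping members share summits, and no test was made. The knockdown count was 1.5 or more times the control count in 11 genes and 2 or more times in 3; the control count was 1.5 or more times the knockdown count in 15 genes and 2 or more times in 1, TBC1D5 (a GTPase-activating protein for Rab proteins).

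**Figure D4:**
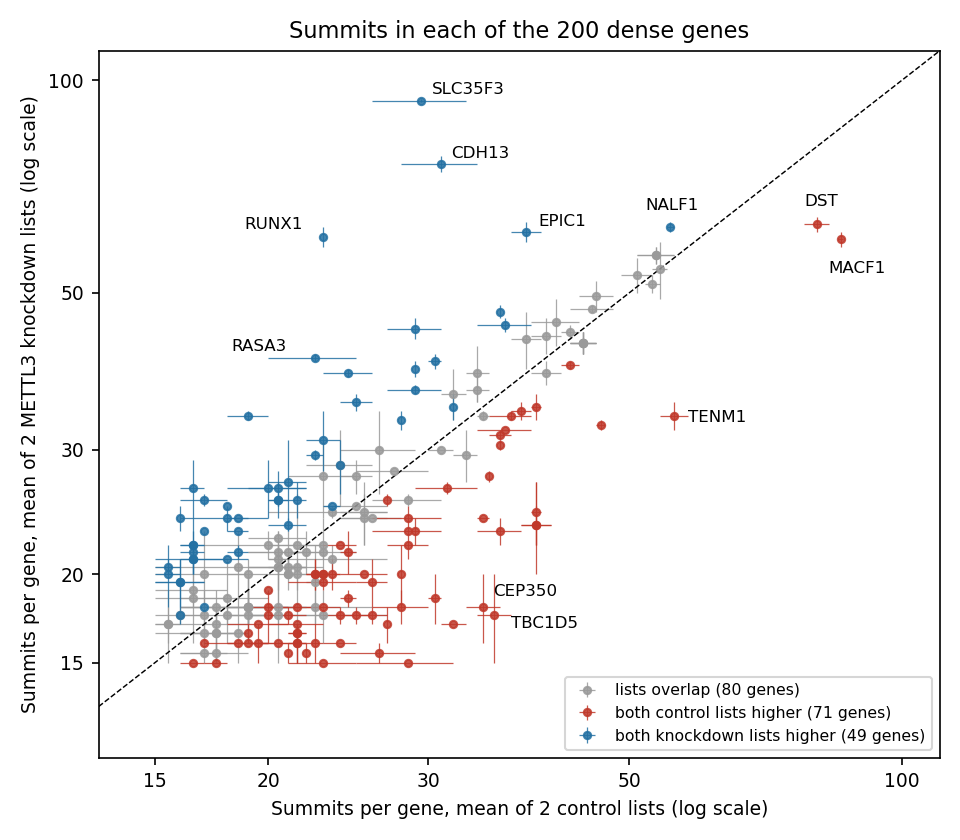
Summits per gene, mean of the 2 control lists against mean of the 2 knockdown lists, both on log scales, for the 200 dense genes; bars span the 2 lists of a group, and the dashed line marks equal counts. SLC35F3, CDH13 and RUNX1 stand far above the line, and MACF1, DST, TENM1, CEP350 and TBC1D5 below it.

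The largest excess of summits in knockdown was in SLC35F3, CDH13 and RUNX1. SLC35F3, a member of a solute carrier family, had 26 and 33 summits in control against 93 and 94 in knockdown, a ratio of 3.17. RUNX1, a transcription factor of blood development, had 23 and 23 against 58 and 62, a ratio of 2.61. CDH13, an atypical cadherin anchored to the membrane by lipid, had 28 and 34 against 78 and 74, a ratio of 2.45. In each of these genes both knockdown counts were above both control counts. A peak needs both RNA and methylation to be called, and in bulk lists more RNA per cell, more cells with the RNA and more methylation cannot be told apart.

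Merging the lists to loci shows which peaks were shared. The dense genes held 5948 loci, of which 2540 (42.7%, 41.5 to 44.0) had a peak in all 4 lists, 746 in 3, 1387 in 2 and 1275 (21.4%) in 1. Of the 3595 loci with a peak in both control lists, 610 (17.0%, 15.8 to 18.2) lacked a peak in the knockdown libraries altogether (control-only); over all genes 22.1% were. Of the 3390 with a peak in both knockdown lists, 549 (16.2%, 14.99 to 17.5) were knockdown-only, against 18.7% over all genes. With lists of equal length the order was the reverse, 16.1% control-only and 18.4% knockdown-only. Genes with a smallest count of 10 to 14 had 42.7% of loci in all 4 lists, 18.0% control-only and 14% knockdown-only. A gene with many summits in every list must hold loci in every list, so the lower one-sided shares of dense genes follow in part from the rule and are not read as a result.

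One-sided loci were spread over most dense genes. At least 1 control-only locus occurred in 168 genes, at least 1 knockdown-only locus in 155, both kinds in 129 and neither in 6. Control-only loci were the more numerous kind in 107 genes, knockdown-only loci in 71, and 22 had equal numbers. Neighbouring one-sided loci on 1 strand of a gene were of the same kind in 745 of 957 pairs (77.8%), near the 80.4% (3967 of 4937) of other genes. The knockdown-only loci were the more concentrated: the 10 territories with the most held 199 of 549, against 139 of 610 control-only loci in their 10.

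**Figure D5:**
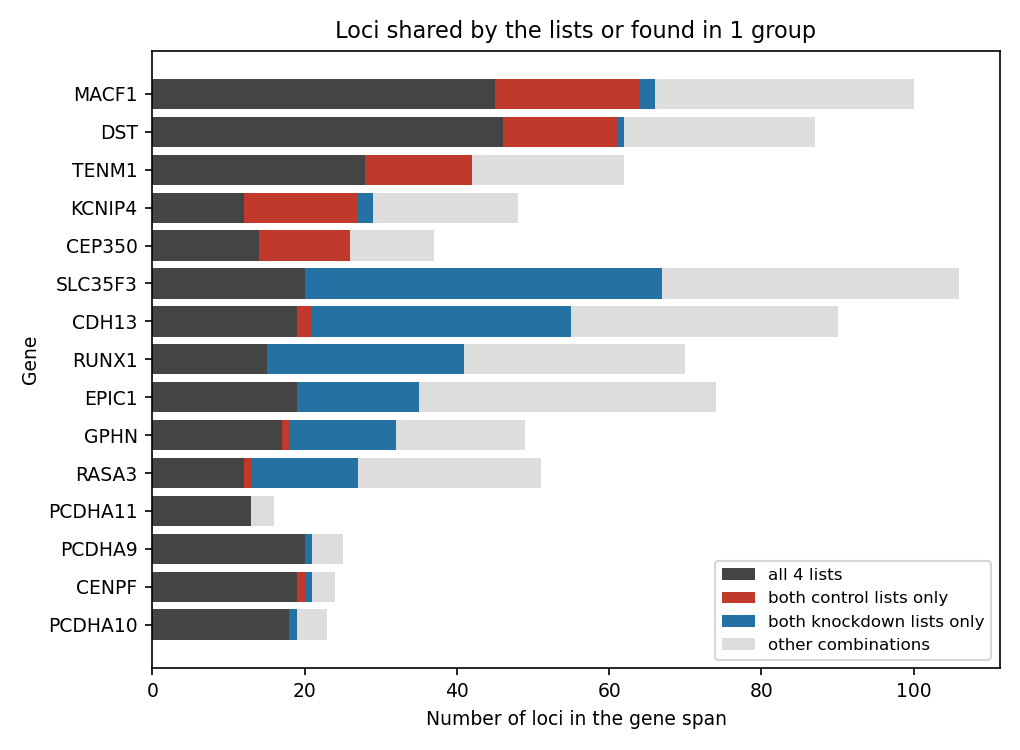
Number of loci in 15 dense genes by the lists that hold a peak: all 4 lists (dark), both control lists only (red), both knockdown lists only (blue) or any other combination (light grey). SLC35F3 has 47 blue and 0 red loci, MACF1 has 19 red and 2 blue, and PCDHA11 has neither.

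SLC35F3 had 47 knockdown-only and 0 control-only loci beside 20 found in all 4 lists. Its knockdown-only loci ran from 0.295 to 398 kb of its 420 kb span. Their median fold was 3.51 and 3.34 in the knockdown lists, against 3.86 and 3.87 in the same lists for the gene's loci in all 4. CDH13 had 34 knockdown-only and 2 control-only loci. The 34 reached from near the start to 1054 kb of the 1174 kb span, with median folds of 4.12 and 3.75, against 3.87 and 4.11 for the 19 shared loci of CDH13. RUNX1 had 26 and 0, from 1.64 to 226 kb of its 262 kb span, with median folds of 3.30 and 3.46 against 3.97 and 3.55 for its 15 shared loci. In CDH13 and RUNX1 the knockdown-only loci lay among shared ones along most of the span. In SLC35F3 the shared loci ended at 289 kb, so knockdown-only loci beyond that point had no shared locus among them.

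EPIC1, a lncRNA gene on chromosome 22, had 37 and 40 summits in control and 63 and 59 in knockdown, with 16 knockdown-only and 0 control-only loci. GPHN, the scaffold of inhibitory synapses that also makes molybdenum cofactor, had 26 and 23 against 38 and 39, with 14 knockdown-only loci and 1 control-only locus. RASA3, a GTPase-activating protein for Ras, had 25 and 20 against 40 and 41, also with 14 and 1. In each of the 3 genes the knockdown counts lay above the control counts. The 14 knockdown-only loci of RASA3 had median folds of 3.61 and 5.07.

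On the control side the spectraplakin genes led. MACF1 had 19 control-only and 2 knockdown-only loci beside 45 in all 4 lists, and the control-only loci lay from 171 to 400 kb of its 403 kb span. DST had 15 and 1 beside 46 shared loci. TENM1 had 54 and 58 summits in control against 35 and 32 in knockdown, with 14 control-only and 0 knockdown-only loci.

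KCNIP4 had 38 and 41 summits in control and 27 and 20 in knockdown, with 15 control-only and 2 knockdown-only loci. CEP350, a centrosomal protein, had 36 and 33 against 16 and 20, with 12 and 0. CEP350 also held the locus with the highest fold kept in every list, at chr1:180011810-180012038 on the plus strand, 57.1 kb into the gene: 15.3 and 11.5 in control against 11.7 and 10.3 in knockdown. Its control-only loci had median folds of 4.16 and 3.70. One-sided and strongly enriched shared loci thus stood in the same gene.

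The next highest shared loci were in CNTRL, a centrosomal protein (folds of 9.56, 11.1, 13.2 and 14.7 in the order of the libraries), in LRP6, a Wnt co-receptor (9.42, 9.40, 10.6 and 10.8), and in ZEB1, a transcriptional repressor (10.6, 9.33, 11.1 and 9.40). In CNTRL and LRP6 both knockdown folds were above both control folds, and in ZEB1 the groups overlapped. These loci were named after their values were seen.

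Changes in the number of loci depended on the fold a peak had to reach. Counting only peaks with a fold of at least 4 left DST with 3 more knockdown-only than control-only loci, a reversal, and GPHN with equal numbers. Under the same filter MACF1 kept an excess of 2 control-only loci, from 17 without it. SLC35F3 kept an excess of 15, CDH13 of 12 and RUNX1 of 2 knockdown-only loci, the last from 26 without the filter. Among the same 200 genes, kept as first chosen, 35 were higher in both control lists with this filter in place of 71. In both knockdown lists 69 were higher in place of 49. The shares over all genes with this filter are not given here. Fold scales may differ between lists, and the median fold was higher in both knockdown lists.

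The lowest share of loci in all 4 lists was that of HIPK2, a nuclear kinase, at 17.1% (7 of 41 loci), and it had 7 knockdown-only and 6 control-only loci. Its counts were 20 and 22 in control against 31 and 23 in knockdown. SLC35F3 (18.9%), CDH13 (21.1%) and RUNX1 (21.4%) were also low, and THBS1, PDCD11, ACIN1 and IGFN1 were each at 50%.

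By function, giant cytoskeletal and scaffold proteins had more dense genes than any other of the 9 lists used: 15 of the 37 listed genes were dense. The 24 protocadherin cluster genes, which these lists do not group, are more numerous. For comparison with each list, 0.521% of all genes in the table and 2.16% of those with a summit in each list were dense. The list was picked for giant proteins, and dense genes are long (median span 178 kb against 35.3 kb in other genes). Function and gene length therefore cannot be told apart in this ranking. The 15 held 329 loci in all 4 lists, 92 control-only and 16 knockdown-only loci, and control-only loci were the more numerous kind in 12 of the 15, against 107 of all 200 dense genes. Both control counts were above both knockdown counts in 8 of the 15, against 71 of the 200 (35.5%) and 24.1% of all genes with a summit in each list; these included MACF1, DST, SPTBN1 (46 and 47 against 32 and 33), BIRC6 (30 and 26 against 19 and 17) and HERC1 (24 and 25 against 23 and 20). Both knockdown counts were higher in 2 of the 15, against 49 of the 200 (24.5%) and 16.5% of all genes with a summit in each list. The direction of these counts was not tested.

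Chromatin regulators followed with 9 dense genes of 41 listed, with 127 loci in all 4 lists, 15 control-only and 11 knockdown-only. Both control counts were higher in 3 of the 9, both knockdown counts in 1, and the groups overlapped in the others. Over the 200 dense genes these shares were 35.5% and 24.5%, and over all genes with a summit in each list 24.1% and 16.5%. With 9 genes, nothing is read from these counts. CHD2, a chromatin remodeller, had 29 and 29 control and 24 and 22 knockdown summits. CHD7, of the same family, had 27 and 30 against 23 and 21, so both were higher in control. NSD2, a histone methyltransferase, had 19 and 22 against 25 and 28, the opposite order. NCOR1, a nuclear receptor co-repressor, had 26 and 31 against 25 and 26, and the groups met at 26.

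Among the smaller groups, the direction differed. Of 35 listed ubiquitin ligases and proteases 5 were dense, with 11 control-only and 4 knockdown-only loci; BIRC6, HERC1 and RNF213 stand in this list and in the scaffold list. Of 38 adhesion and guidance receptors 4 were dense (CDH13, PTPRD, PTPRF and PTPRM), which held 45 knockdown-only loci, 34 of them in CDH13, and 12 control-only loci. Of 45 transcription factors and cofactors 5 were dense, with 10 and 37, of which RUNX1 gave 26. PTPRM, a receptor tyrosine phosphatase, had 34 and 39 summits in control and 44 and 46 in knockdown.

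Kinases and phosphatases had 3 dense genes of 46 listed: EGFR (19 and 18 against 22 and 21 summits), HIPK2 and ROCK1 (20 and 17 against 16 and 16). ROCK1, a kinase of actin contractility, was higher in control, and the growth factor receptor EGFR was higher in knockdown. Splicing and RNA-binding proteins had 2 of 31, SRRM2 and PRRC2B, with 7 control-only and 2 knockdown-only loci. The lists were chosen with earlier results of these data known, so their counts are descriptions.

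The 25 lncRNA genes were longer than the protein_coding members, with a median span of 280 kb against 171 kb, and held 11.9 against 14.3 summits per 100 kb. Their median distance between summits was 2323 bp against 2258 bp, and their median share of loci in all 4 lists was 44.4% against 45.5%. Of the 25, 14 have only a LOC or LINC symbol. LOC105374511 had 42, 44, 45 and 43 summits in the order of the libraries, SLC38A4-AS1 had 39, 42, 41 and 46, and LOC105374524 had 33, 35, 38 and 35, and in all 3 the groups overlapped.

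LOC107986770 (44 and 42 against 39 and 40) and LOC105370214 (34 and 39 against 32 and 32) had both control counts above both knockdown counts. ZFPM2-AS1 (32 and 32 against 36 and 33) had both knockdown counts above, as did EPIC1. Of the 35 listed lncRNA genes with long or nuclear transcripts, 4 were dense: EPIC1, KCNQ1OT1, LINC-PINT (21 and 20 against 26 and 25) and SNHG14 (28 and 24 against 24 and 24). Together they held 12 control-only and 26 knockdown-only loci, 16 of the 26 in EPIC1.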

How the data were processed

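The deposited files are MACS2 peak lists, 1 per library, called by the authors per library and, per the peak names, per strand. Per the submitters' processing notes, the tools were MACS2 2.2.7.1, HISAT2 2.1.0, Bowtie2 2.4.2, SAMtools and Trim Galore 0.6.6, with the build hg38. The part each tool played and the handling of inputs and spike-in are not given in the sources used here. Fold enrichment (a ratio) at each summit is the authors' deposited value. The deposited −log10 p and −log10 q values were used only for filters, with a smallest −log10 q of 2.00. The deposited score was not used. The names of peaks in the knockdown lists start with ko, although the labels give a knockdown.

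Summits were assigned to gene spans of a RefSeq table (GRCh38.p14, the build of hg38, 38386 protein_coding or lncRNA genes, without exons). Strands came from RefSeq promoter windows for 163 dense genes. Peaks sharing at least 1 bp on 1 strand were merged to loci. Distances and shares count a summit or locus once, also where genes overlap. Medians and shares of libraries were tested by exact permutation with Benjamini-Hochberg adjustment over 3 values, in Python 3.11.15 with scipy 1.17.1; the 95% Wilson intervals of shares reflect counting error alone. The scripts were tested on simulated data. The members and the gene lists were chosen with earlier results of these data known. Named genes are those with the highest counts, the most and fewest summits per length, the longest and shortest spans, the largest excess of either one-sided kind, the largest shared and lesser-strand shares, up to 8 lncRNA genes, 5 genes on each side of the threshold and up to 3 per list. Alternatives were a fold of at least 4, a −log10 q of at least 20, lists of equal length, other summit thresholds, a reciprocal overlap of 50%, 1 strand, summits in 1 gene alone and leaving out each library. Some items that the naming rule picks are not reported here.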

Additional observations from a re-analysis of the deposited data

How the results depend on the processing

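Except for the number of dense genes and the values at another threshold of summits, values are over the 200 genes first chosen. The number of dense genes was 29 with peaks of a fold of at least 4, 71 with a −log10 q of at least 20, 376 at a threshold of 12 summits, 94 at 20, and 209 to 231 when 1 library was left out. With a fold of at least 4, summits per kb (main value 0.137) were 0.0553, the median distance 4913 bp, the share of loci in all lists 24.3%, the control-only share 21.4% and the knockdown-only share 25.8%. With a −log10 q of at least 20 they were 0.0972, 3148 bp, 38.1%, 19.1% and 16.1%. Lists of equal length gave 0.131 summits per kb, 2472 bp, and shares of 16.1% control-only and 18.4% knockdown-only, the reverse of the main order. Summits per kb were 0.157 between the first and last summit and 0.128 on the main strand, and distances were 2239 bp with both strands together and 2446 bp on the main strand. With a reciprocal overlap of 50% the shares were 29.4% in all lists, 22.8% control-only and 22.6% knockdown-only, and at 20 summits 15.5% and 17.7% for the one-sided kinds. Leaving out 1 library gave 47.3% to 49.3%, 21.4% to 23.3% and 20.4% to 23.4%, since fewer lists must hold or lack a peak. The difference in the share off the main strand reversed to -0.110 percentage points at a −log10 q of at least 20. It ranged from -0.0485 to 0.398 without 1 library. The median fold difference was 0.0396 with lists of equal length (exact permutation p = 0.667, so the groups overlapped) and 0.289 at a −log10 q of at least 20. The width difference was 60.25 bp with a fold of at least 4 and 50 bp at a −log10 q of at least 20. The median fold difference stayed between 0.0751 and 0.191 and the width difference between 16.25 and 19.25 bp without 1 library, where a group of 1 library has no spread of its own.

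Alternatives for single genes and for counts that do not overlap were chosen after seeing the data. With a fold of at least 4, 35 of the 200 genes were higher in both control lists and 69 in both knockdown lists, and DST turned to -3 control-only minus knockdown-only loci. With lists of equal length these counts were 52 and 66. For neither alternative are the shares over all genes given here. Of the 94 genes at a threshold of 20 summits, 28 were higher in control and 25 in knockdown, against 71 and 49 of the 200. Over all genes with a summit in each list, 24.1% and 16.5% were. Of the 12 genes named for an excess, DST was the only reversal in any alternative run. For other moves the cause was not tested.

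With a replicate block, the differences were again 0.133 in median fold, 17.75 bp in width and 0.175 percentage points in the share off the main strand. The exact sign-flip p was 0.5 in each, the smallest that 2 pairs allow. Deviations of same-numbered libraries correlated at 0.117 for both numbers, which is 1 value by construction with 2 libraries a group, so the libraries share only a number. Unknown read depth limits every absence of a peak.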
